A study of Homo sapiens with 15 samples.

Results

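The E2F family is made up of the transcription factors E2F1 to E2F8, and TFDP1 and TFDP2 encode the DP proteins with which E2F1 to E2F6 pair to bind DNA. The 10 genes were chosen by symbol from the 17272 genes measured, and each had a row in the data. All 10 passed the minimum mean of 0.5 CPM (counts scaled to the size of the library) that left 17046 genes for testing. RNA was taken from LNCaP, a human prostate cancer line that responds to androgen. The cells were kept for 2 days in medium with charcoal-stripped serum, which is poor in androgen, and were then given 1 nM of the synthetic androgen R1881 with either the vehicle DMSO or 2 µM of enzalutamide, a drug that blocks androgen signalling. They were harvested after 22 h, so that both groups had received R1881 and differed in treatment by enzalutamide. The labels give 10 R1881 + DMSO libraries and 5 R1881 + enzalutamide libraries, whereas the text of the methods gives these numbers the other way round, and the labels were followed here. Each library also has a number in its label, 51 to 55 and 71 to 75 for R1881 + DMSO and 81 to 85 for R1881 + enzalutamide, and the labels do not say what these numbers stand for. No number series held both treatments, so a difference between series cannot be told apart from one between treatments.

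E2F proteins bind the promoters of genes needed for DNA replication and cell division. E2F1, E2F2 and E2F3 activate these genes once cyclin-dependent kinases have released them from the retinoblastoma protein RB1. E2F4 and E2F5 repress the same genes in resting cells together with the RB1 relatives RBL1 and RBL2, E2F6 represses genes without any of these pocket proteins through Polycomb-type complexes, and the atypical E2F7 and E2F8 repress E2F targets in S phase without a DP partner. Several family genes, E2F1 among them, are themselves known E2F targets, so that the family can act on its own transcription.

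Enzalutamide was accompanied by lower E2F1, E2F2, E2F7 and E2F8 transcript, each by more than 2-fold, and the ranges of the 10 and the 5 libraries did not meet for any of these 4 genes. E2F4, E2F5 and E2F6 were lower by less than 0.30 on the log2 scale, TFDP2 was higher by 0.23, and E2F3 and TFDP1 did not pass the test. Thus 7 of the 10 genes were called lower and 1 higher at an adjusted p under 0.05 (limma, Benjamini-Hochberg adjustment over all genes tested). Of all 17046 genes, 32.7% were called lower and 29.8% higher, so that a call on its own was common in this comparison. The groups did not overlap for 5 of the 10 genes, beside 37.2% of all genes. The split of calls over all genes depended on the scaling of the libraries, with 5577 lower and 5083 higher for the values as deposited and 4288 lower and 6641 higher when each library was set to a total of 1000000. Under the second scaling, 5 of the 10 genes were called lower and 1 higher.

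**Figure D1:**
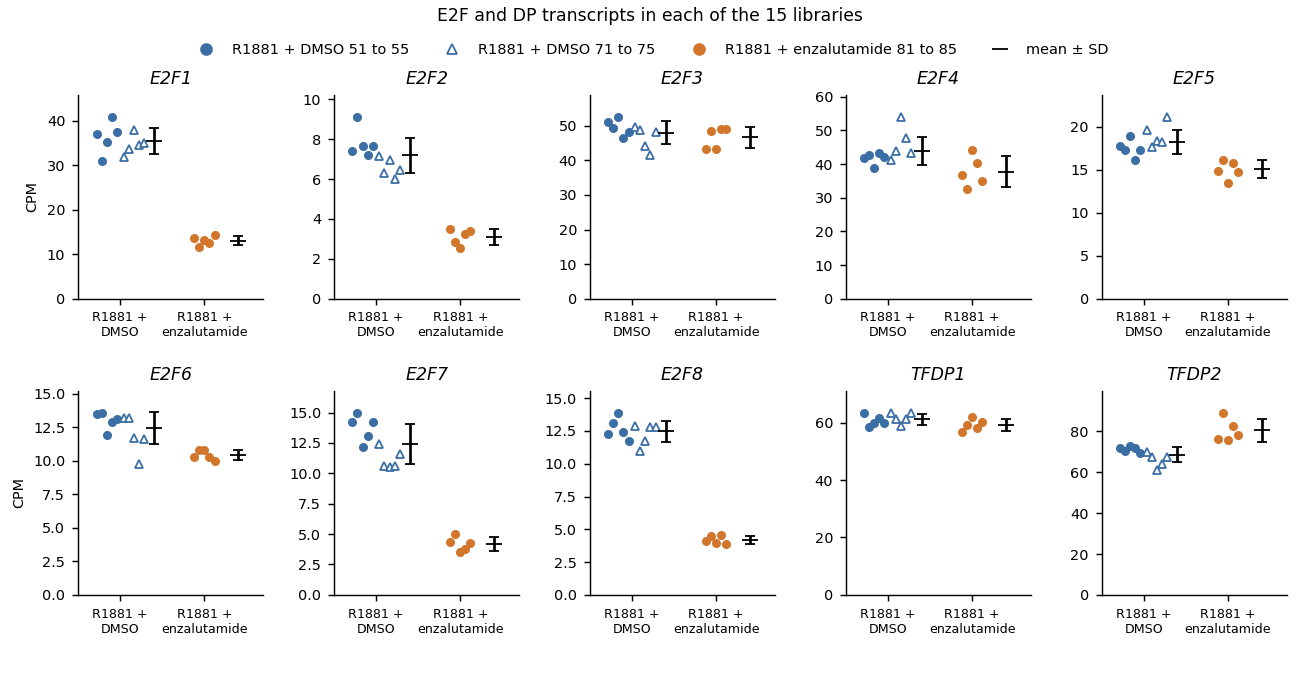
CPM of each E2F and DP gene (vertical axes, each from 0) in the 10 R1881 + DMSO libraries (blue, filled circles for libraries 51 to 55 and open triangles for 71 to 75) and the 5 R1881 + enzalutamide libraries (orange), with the mean ± SD in black. E2F1, E2F2, E2F7 and E2F8 separate downwards and TFDP2 upwards, whereas the points of E2F3 and TFDP1 lie side by side.

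The libraries held between 15830745 and 24316740 reads with DMSO and between 21188661 and 25416052 with enzalutamide. The androgen-induced genes checked for the effect of the drug fell in 5 of 5 cases, and KLK3, which encodes prostate-specific antigen, fell from a mean of 1588 to 134 CPM. All 7 markers of LNCaP and luminal prostate cells were detected, 4 of them lower and 3 higher with enzalutamide. Of 12 markers of immune, endothelial, stromal, basal and neuroendocrine cells, 3 had a row (VWF, COL1A1 and SYP), with a summed level of 8.38 to 12.4 CPM with DMSO and 11.3 to 16.7 CPM with enzalutamide, and the other 9 were not analysed here. Their part in the results was not tested. In DMSO libraries 73 and 74 and enzalutamide library 83 the deviations from the group means went together (correlations of 0.67 to 0.84 across 12164 genes). The root mean square of the deviations on the log2 scale was 0.15 to 0.23 in these 3 libraries. In the other 12 it was 0.07 to 0.15, so that the sizes nearly met. With these 3 libraries left out, a choice made after the data were seen, the same 7 genes were called lower and TFDP2 higher. The study calls the libraries biological replicates, and the labels do not say that they came from separate cultures, so the p-values measure the spread between libraries.

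The promoters of 4 members are shown to compare the activators with E2F7, because the first 3 hold E2F words next to the start and E2F7, with a log2 fold change close to that of E2F1, holds none. Each is the 120 bases before the transcription start from RefSeq on GRCh38.p14, 5′ to 3′ on the strand of the gene, and capitals mark a match to an E2F word on either strand. The words searched were the core TTTCCCG, its variant TTTCGCG with a changed centre, the form TTTGCCG and the similar sequence TTTGGCG. E2F1 is at chr20:33686386-33686505, minus strand, E2F2 at chr1:23531234-23531353, minus strand, E2F3 at chr6:20401759-20401878, plus strand, and E2F7 at chr12:77065570-77065689, minus strand.
E2F1: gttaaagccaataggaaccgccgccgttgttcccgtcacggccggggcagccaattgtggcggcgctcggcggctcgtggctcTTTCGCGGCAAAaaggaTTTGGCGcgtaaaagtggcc
E2F2: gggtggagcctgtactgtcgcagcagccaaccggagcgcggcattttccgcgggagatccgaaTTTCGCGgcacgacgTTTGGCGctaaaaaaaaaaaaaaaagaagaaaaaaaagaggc
E2F3: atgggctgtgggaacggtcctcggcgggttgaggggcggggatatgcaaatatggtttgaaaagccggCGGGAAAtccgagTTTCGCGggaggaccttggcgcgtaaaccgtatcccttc
E2F7: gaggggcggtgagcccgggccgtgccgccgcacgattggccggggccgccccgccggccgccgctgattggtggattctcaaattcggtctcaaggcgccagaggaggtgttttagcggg

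In windows of 300 bases, 250 before the start and 50 from it, E2F1 held 3 matches. The first lay at -37 to -31 and the second, on the other strand, at -32 to -26, so that they shared bases, and the third lay at -20 to -14, where negative positions lie before the first transcribed base. E2F2 held 2 matches, at -57 to -51 and -42 to -36. E2F3 held 2 at the first of its starts, at -52 to -46 on the other strand and at -39 to -33, and 0 at the second start. E2F6 held 2 matches farther out, at -183 to -177 and -78 to -72, TFDP1 held 1 at -119 to -113, and the first TFDP2 start held 1 behind the start, at 19 to 25. E2F4, E2F7 and the other TFDP2 starts held 0. At least 1 match was present in 8.67% of 35116 windows of the same length and at least 2 in 0.681%. E2F1 with 3 matches, E2F2 with 2 and E2F7 with 0 were lower. E2F6 with 2 and E2F4 with 0 were lower by less, and E2F3 with 2 and TFDP1 with 1 did not pass the test. TFDP2, with 1 at its first start and 0 at the others, was higher. The words were chosen after the promoters had been read, and a relation of matches to responses was not tested. The absence of these letters says nothing about binding of a factor. No entry was matched for E2F8, and E2F5 was not searched.

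**Figure D2:**
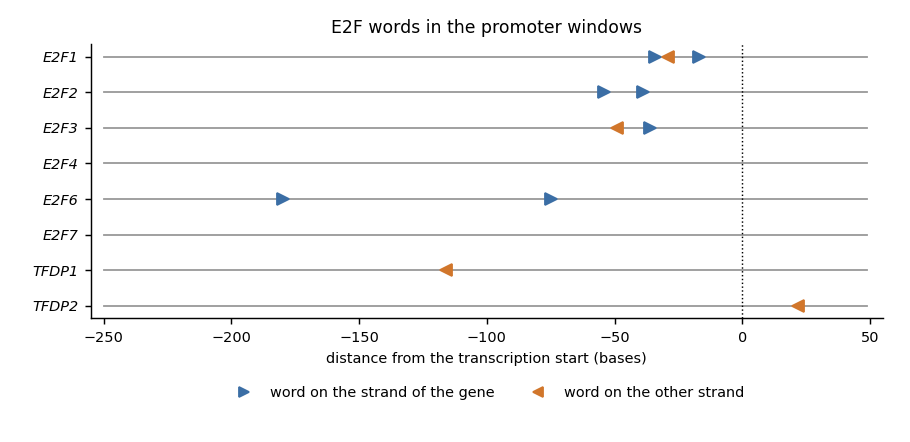
Positions of the matched words (centres, in bases from the transcription start, dotted line) in the promoter window of each member, at the first start in the table where there are several. Blue triangles pointing right are words on the strand of the gene and orange triangles pointing left words on the other strand, and the matches of E2F1, E2F2 and E2F3 all lie between -57 and -14.

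Of the activators, E2F1, which drives entry into S phase, ranged from 31.1 to 41.0 CPM (median 35.1) with DMSO. With enzalutamide it was at 13.7, 11.6, 13.3, 12.5 and 14.3 CPM in libraries 81 to 85. All 5 values lay under the lowest DMSO value, and the median was 62.2% lower. The log2 fold change on the scale log2(CPM + 0.5), used for each fold change here, was -1.40 (SE 0.062, 95% interval -1.53 to -1.27, adjusted p = 3.51e-14 in limma), and an exact permutation test over the 3003 regroupings of the libraries gave p = 0.000333, the smallest possible. Leaving out any single library gave values between -1.44 and -1.36. In RNA of whole cultures, fewer cells in the part of the cycle in which a gene is transcribed and less transcript per cell cannot be told apart. The gene lies at chr20:33675477-33686385 on the minus strand of GRCh38 in the GENCODE v44 annotation, and no other gene overlaps it.

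E2F2 had the lowest level per length of the family. It was measured at 5.98 to 9.13 CPM (median 7.19) with DMSO and at 3.5, 2.84, 2.56, 3.25 and 3.41 CPM with enzalutamide, where a value rests on 55 to 83 reads. The groups did not overlap, with a log2 fold change of -1.09 (SE 0.090, interval -1.28 to -0.90, adjusted p = 1.24e-09 in limma, exact permutation p = 0.000333). It was -0.97 against DMSO libraries 71 to 75 alone and -0.99 with a pseudocount of 1, so the fall did not pass 2-fold in every setting. E2F2 lies at chr1:23506438-23531233, minus strand, without an overlapping gene. Within single libraries, log2 E2F1 exceeded log2 E2F2 by 2.23 ± 0.218 (SD, n = 10) with DMSO and by 1.91 ± 0.151 (SD, n = 5) with enzalutamide, so that E2F1 fell farther by 0.32 (SE 0.097, exact permutation p adjusted over 6 pairs = 0.0235). This difference was past the threshold only in part of the settings. It was -0.25 (adjusted exact p = 0.0759) with a pseudocount of 0.1, -0.23 (adjusted exact p = 0.226) against DMSO libraries 51 to 55 alone and -0.29 (adjusted exact p = 0.0524) without enzalutamide library 84.

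E2F3 stood apart from the other activators. It ranged from 41.5 to 52.6 CPM (median 48.4) with DMSO and was at 43.1, 48.5, 43.2, 49 and 49 CPM with enzalutamide, all inside the DMSO range. The log2 fold change of -0.04 had a 95% interval of -0.15 to 0.07 (adjusted p = 0.507 in limma, exact permutation p = 0.45), so that a fall of the size seen for E2F1 lay outside the interval. The direction of this small value turned with the scaling, to 0.05 with library totals of 1000000. The change of E2F1 relative to E2F3 within libraries was -1.36 (SE 0.094) and that of E2F2 relative to E2F3 was -1.05 (SE 0.088), each with an adjusted exact p of 0.000666. E2F3 spans chr6:20401879-20493714, plus strand, and the intronic lncRNA E2F3-IT1 on the same strand overlaps it. Counts per gene do not separate the E2F3a and E2F3b transcripts, which start at different promoters.

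To compare levels between genes, CPM was divided by the length in kb of the canonical transcript. The sum over the 3 activators was 24.1 ± 1.18 CPM per kb (SD, n = 10) with DMSO and 14.7 ± 0.668 CPM per kb (SD, n = 5) with enzalutamide. E2F1 made up 54.7% ± 3 (SD, n = 10) of this sum with DMSO and 33.1% ± 2.58 (SD, n = 5) with enzalutamide, and E2F3 made up 39.6% ± 2.57 and 62.9% ± 2.74. E2F2 remained the smallest share, at 5.75% ± 0.724 and 4.07% ± 0.455. Among the activators, therefore, the most abundant transcript per kb was E2F1 in each DMSO library and E2F3 in each enzalutamide library. This order with DMSO rests on the division by length. In CPM, E2F3 exceeded E2F1 in each DMSO library too, with log2 E2F1 minus log2 E2F3 at -0.66 to -0.18.

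**Figure D3:**
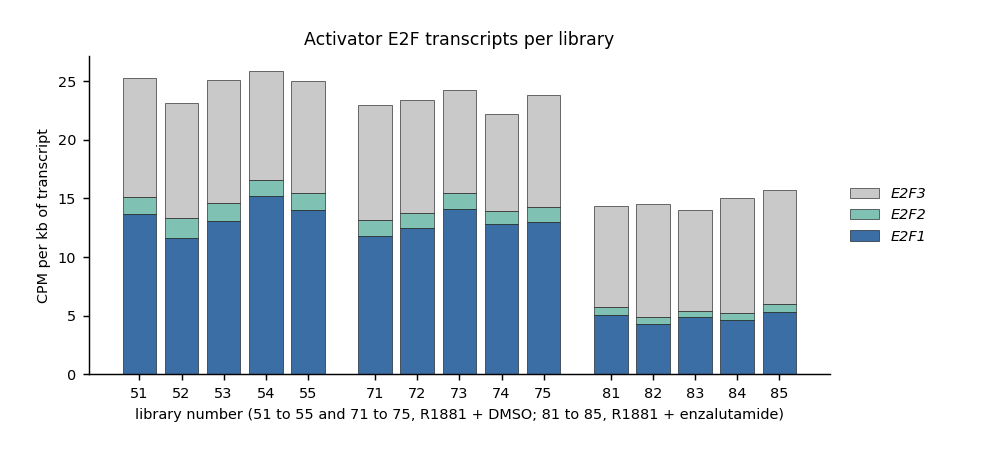
Summed transcript of the activators in each library (vertical axis, CPM per kb of canonical transcript, from 0), stacked as E2F1 (blue), E2F2 (green) and E2F3 (grey). Bars 51 to 55 and 71 to 75 are R1881 + DMSO and stand between 22.2 and 25.9, bars 81 to 85 are R1881 + enzalutamide and stand between 14.0 and 15.7, and the E2F1 segment accounts for most of the difference.

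The pocket-dependent repressors changed by little. E2F4, the most abundant E2F transcript per length, ranged from 38.7 to 54.1 CPM (median 43.0) with DMSO and was at 36.8, 32.6, 44.1, 40.2 and 35.1 CPM with enzalutamide. Of these 5 values, 2 lay inside the DMSO range. Its log2 fold change was -0.22 (SE 0.070, interval -0.36 to -0.07, adjusted p = 0.0106 in limma, exact permutation p = 0.0137). The call did not hold with library totals of 1000000 (-0.12, adjusted p = 0.147), with edgeR on the recovered reads (-0.17, adjusted p = 0.0544), against DMSO libraries 51 to 55 alone (-0.15, adjusted p = 0.0607) or without enzalutamide library 82 (-0.17, adjusted p = 0.0505), all but the edgeR value from limma. The highest values of each group, 54.1 and 44.1 CPM, were those of libraries 73 and 83, whose deviations across genes went together. With those libraries and library 74 left out the change was -0.22 (adjusted p = 0.000333, limma). E2F4 lies at chr16:67192155-67198918, plus strand.

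E2F5 ranged from 16.2 to 21.2 CPM (median 18.0) with DMSO and was at 14.9, 16.2, 13.5, 15.8 and 14.8 CPM with enzalutamide, with 1 of the 5 values inside the DMSO range. The log2 fold change was -0.27 (SE 0.060, interval -0.40 to -0.15, adjusted p = 0.000528 in limma, exact permutation p = 0.000666), and each alternative kept its direction and call. The protein-coding gene RBIS overlaps E2F5 on the opposite strand, and the use of strand in counting is not given, so the counts of the pair are uncertain. The response of E2F4 relative to E2F5 was 0.05 (SE 0.124, adjusted exact p = 0.752), so that a difference between them was not detectable here. Their summed level was 30.1 ± 2.10 CPM per kb (SD, n = 10) with DMSO and 25.6 ± 1.78 CPM per kb (SD, n = 5) with enzalutamide.

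E2F6, which represses germline and other genes without a pocket protein, ranged from 9.75 to 13.6 CPM (median 13) with DMSO and was at 10.3, 10.8, 10.8, 10.3 and 9.97 CPM with enzalutamide. All 5 values lay inside the DMSO range, whose lower end was set by DMSO library 74 alone, the next value being 11.6 CPM. The log2 fold change was -0.24 (SE 0.069, interval -0.38 to -0.09, adjusted p = 0.00533 in limma, exact permutation p = 0.005). Among the alternatives under which it was not called were library totals of 1000000 (-0.15, adjusted p = 0.0625 in limma) and DMSO libraries 71 to 75 alone (-0.17, adjusted p = 0.0833 in limma). E2F6 lies at chr2:11444375-11466177, minus strand, with no overlapping gene.

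Both atypical repressors fell, with log2 fold changes close to that of E2F1. E2F7 ranged from 10.5 to 15 CPM (median 12.3) with DMSO and was at 4.37, 4.98, 3.49, 3.80 and 4.27 CPM with enzalutamide. No values overlapped, the median was 65.3% lower, and the log2 fold change was -1.47 (SE 0.093, interval -1.66 to -1.27, adjusted p = 1.5e-11 in limma, exact permutation p = 0.000333). E2F7 was also the only member called between the DMSO number series, being lower in 71 to 75 (11.1 ± 0.835 CPM, SD, n = 5) than in 51 to 55 (13.7 ± 1.07 CPM, SD, n = 5), with a log2 difference of -0.29 (adjusted p = 0.0447 in limma). In that comparison 3.29% of 16810 genes were called, and the enzalutamide values of E2F7 lay under both series. The other members differed between the DMSO series by -0.23 (E2F2) to 0.14 (E2F4) on the log2 scale, without a call. E2F7 spans chr12:77021248-77065569, minus strand.

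E2F8 ranged from 11.0 to 13.9 CPM (median 12.6) with DMSO and was at 4.14, 4.52, 3.95, 4.55 and 3.86 CPM with enzalutamide. The groups were widely separated, the median was 67.1% lower, and the log2 fold change was -1.46 (SE 0.064, interval -1.59 to -1.33, adjusted p = 2.52e-14 in limma, exact permutation p = 0.000333). Within libraries the response of E2F7 relative to E2F8 was 0.00 (SE 0.095, adjusted exact p = 0.977). The summed level of these genes was 5.54 ± 0.406 CPM per kb (SD, n = 10) with DMSO and 1.86 ± 0.152 CPM per kb (SD, n = 5) with enzalutamide. E2F8 lies at chr11:19224063-19241620, minus strand, where the lncRNA CSRP3-AS1 overlaps it on the opposite strand.

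Neither DP partner was called lower. TFDP1 ranged from 58.5 to 63.5 CPM (median 61.4) with DMSO and was at 56.6, 59.1, 62.1, 58.3 and 60.1 CPM with enzalutamide. Of these values 3 lay inside the DMSO range, and the log2 fold change was -0.05 (SE 0.034, interval -0.12 to 0.03, adjusted p = 0.257 in limma, exact permutation p = 0.0899). The sign turned to 0.05 with library totals of 1000000. TFDP1 lies at chr13:113584721-113641473, plus strand.

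TFDP2 ranged from 61.2 to 72.7 CPM (median 69.6) with DMSO and was at 76.5, 89.2, 76.0, 82.6 and 78 CPM with enzalutamide, all above the highest DMSO value. Its log2 fold change of 0.23 (SE 0.046, interval 0.13 to 0.32, adjusted p = 0.000223 in limma, exact permutation p = 0.000333) was the only rise among the 10 genes. Leaving out any single library gave values between 0.19 and 0.25. The response of TFDP1 relative to TFDP2 was -0.27 (SE 0.057, adjusted exact p = 0.000666). TFDP2 spans chr3:141944428-142149544, minus strand. The processed pseudogene RPL19P6 on the same strand and the snRNA gene RNU6-425P on the opposite strand overlap it. Because TFDP1 was the more abundant per length, the summed DP level per kb was close in both groups. It was 30.1 ± 0.879 CPM per kb (SD, n = 10) with DMSO and 30.6 ± 0.865 CPM per kb (SD, n = 5) with enzalutamide. The share of TFDP2 in it was 23.1% ± 0.980 and 26.6% ± 1.57. This order and the closeness of the sums rest on the division by length, 2.64 kb for TFDP1 and 9.88 kb for TFDP2. In CPM, TFDP2 exceeded TFDP1 in each library. There log2 TFDP1 minus log2 TFDP2 was -0.28 to -0.06 with DMSO and -0.59 to -0.29 with enzalutamide.

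**Figure D4:**
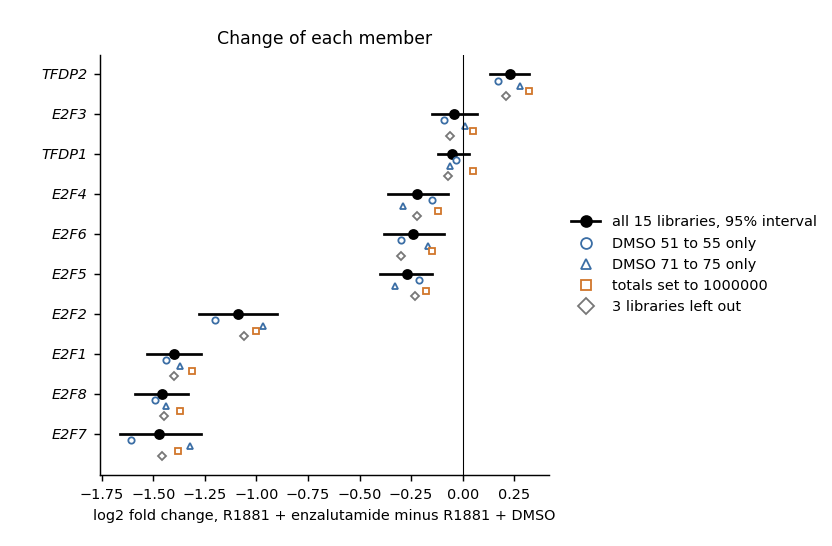
Log2 fold change of each member, R1881 + enzalutamide minus R1881 + DMSO (horizontal axis), with the 95% limma interval of all 15 libraries as black points and bars and the values of 4 alternatives as open symbols. The alternatives of E2F1, E2F2, E2F7 and E2F8 all lie under -0.90, those of TFDP2 all above 0, and those of E2F3 and TFDP1 on both sides of 0.

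In the order of mean levels per kb with DMSO, TFDP1 (23.2 CPM per kb) and E2F4 (20.8) led, followed by E2F1 (13.2), E2F3 (9.52), E2F5 (9.30), TFDP2 (6.95), E2F6 (3.86), E2F8 (3.36), E2F7 (2.17) and E2F2 (1.38). The ranges of neighbours met for TFDP1 and E2F4, for E2F3 and E2F5 and for E2F6 and E2F8, so that their order is not separated by these libraries. With enzalutamide TFDP1 (22.4 CPM per kb) and E2F4 (17.9) were followed by E2F3 (9.25), TFDP2 (8.14), E2F5 (7.66), E2F1 (4.86), E2F6 (3.23), E2F8 (1.13), E2F7 (0.730) and E2F2 (0.599). Here the ranges met for E2F3 and TFDP2, for TFDP2 and E2F5 and for E2F7 and E2F2. E2F1 thus went from the third to the sixth place. The sum over the 8 E2F genes was 63.6 ± 1.72 CPM per kb (SD, n = 10) with DMSO and 45.4 ± 1.53 CPM per kb (SD, n = 5) with enzalutamide.

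The genes that control E2F proteins were examined next. Of the pocket proteins, RBL2 (p130), the partner of E2F4 in resting cells, rose from a mean of 185 to 322 CPM (log2 fold change 0.80, SE 0.035, adjusted p = 2.64e-14 in limma). RBL1 (p107) fell by 0.34 on the log2 scale (SE 0.074, adjusted p = 0.000464 in limma), and RB1, at -0.12 (SE 0.054), did not pass the test (adjusted p = 0.0587 in limma). RBL1 and RBL2 thus moved in opposite directions. With libraries 73, 74 and 83 left out, RBL1 and RB1 were both called lower, 2 of the 3 genes.

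Among G1 cyclins, their kinases and the inhibitors of these kinases, 9 of the 14 genes tested were lower, 4 higher and 1 not called, with a median log2 fold change of -0.21 beside -0.01 for all genes tested. Of all genes, 32.7% were called lower and 29.8% higher. With library totals of 1000000, 7 genes of this list were lower and 4 higher, with a median of -0.12. The kinases that phosphorylate pocket proteins were all lower, with log2 fold changes of -1.93 for CDK6, -1.16 for CDK2 and -0.18 for CDK4. The cyclins were lower by less, at -0.57 for CCND3, -0.30 for CCNE2, -0.25 for CCNE1 and -0.16 for CCND1. The inhibitors of CDK2 complexes CDKN1A (p21) and CDKN1B (p27) were higher, by 0.40 and 0.17, and CDKN1C, at -0.12, was not called. The INK4 inhibitors of CDK4 and CDK6 divided, with CDKN2A at 0.33 and CDKN2B at 0.25 higher and CDKN2C at -0.70 and CDKN2D at -0.58 lower. CCND2 was not analysed here.

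The DREAM complex joins E2F4 or E2F5, a DP protein and RBL1 or RBL2 to the MuvB proteins, which later pass to the activators B-MYB and FOXM1. Of 8 genes, 6 were lower and 0 higher, with a median of -0.34, beside 32.7% of all genes called lower and 29.8% higher. The activators led, with MYBL2 (B-MYB) at -1.28 and FOXM1 at -0.69. The MuvB genes LIN52, LIN9, LIN54 and RBBP4 were lower at -0.57, -0.40, -0.28 and -0.18. LIN37 (-0.04) and DYRK1A (-0.05), the kinase that promotes DREAM assembly, did not pass the test.

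Of 13 genes of the complex with which E2F6 acts, 7 were lower, 3 higher and 3 not called, with a median of -0.17. Beside this, 32.7% of all genes were called lower and 29.8% higher. With library totals of 1000000, 6 genes of the complex were lower and 3 higher, with a median of -0.08. RYBP (-0.36), WDR5 (-0.32), RNF2 (-0.32), YAF2 (-0.31), CBX3 (-0.29), L3MBTL2 (-0.26) and HDAC2 (-0.17) were lower, EPC1 (0.31), HDAC1 (0.18) and RING1 (0.14) were higher, and MAX (-0.10), PCGF6 (-0.08) and MGA (-0.02) were not called. Of 9 germline genes known to be repressed by E2F6, 3 had a row, and none was called higher. TUBA3D was at a mean of 61.0 CPM with DMSO and 0.236 CPM with enzalutamide and TUBA3C at 12.2 and 0.0693 CPM, but these tubulin genes are near-identical copies whose reads the counting may have split, and STAG3 (0.10) did not pass the test.

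Of 50 G1/S genes known as E2F targets, 49 were called lower and 0 higher, with a median log2 fold change of -0.82, beside 32.7% of all genes called lower. The lowest were ATAD2 (-2.50), a chromatin ATPase, RRM2 (-1.69), a subunit of ribonucleotide reductase, and CDC6 (-1.60), which loads the replicative helicase. The highest were CCNE1, CCNE2 and CHAF1B, the last at -0.07 and not called (adjusted p = 0.256 in limma). In RefSeq windows of 300 bases, with chromosome 8 not searched, 26 of the 42 target genes with a searched entry (61.9%) held at least 1 of the E2F words. Of all genes searched, 2832 of 27305 did (10.4%).

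Late cell cycle genes, which peak in G2 and mitosis, were lower in 25 of 25 cases, with a median of -0.89. The share of all genes called lower was 32.7%. KIF20A and MKI67 (-1.25 each) and AURKB (-1.09) were lowest and BUB1B (-0.67), NEK2 (-0.59) and CCNB1 (-0.58) highest. Their summed level was 1361 to 1805 CPM with DMSO and 757 to 889 CPM with enzalutamide, so markers of cycling cells moved together with E2F1, E2F2, E2F7 and E2F8, and their part in those changes was not tested. Of these 25 genes, 4 of the 20 with a searched entry (20%) held an E2F word. Genes for the turnover of E2F and DP proteins and their control late in S phase were lower in 10 of 10 cases (median -0.87), from CDK2 (-1.16), CCNA2 (-1.02) and UBE2C (-0.99) to CCNF (-0.55), FZR1 (-0.30) and SKP2 (-0.29). Most of these 10 genes also stand in the G1, G1/S or late cell cycle lists, so this count is not a separate result. With library totals of 1000000, 9 of these 10 genes were called lower.

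The apoptotic targets ascribed to E2F1 showed no common direction. Of 11 genes tested, 3 were lower, 4 higher and 4 not called, with a median of 0.08. The shares over all genes were 32.7% lower and 29.8% higher. The counts of the list were 3 and 6 with library totals of 1000000 and 4 and 4 with libraries 73, 74 and 83 left out. Among the lower genes were PMAIP1 (NOXA, -0.88) and SIVA1 (-0.49), and among the higher ones BBC3 (PUMA, 0.70), CASP9 (0.24) and APAF1 (0.21). BBC3 was low, at a mean of 1.36 ± 0.724 CPM (SD, n = 10) with DMSO and 2.4 ± 0.67 CPM (SD, n = 5) with enzalutamide. The groups overlapped for BBC3, CASP9, APAF1 and SIVA1, but not for PMAIP1. A gene can stand in several of these lists, as RBL1, CDK2, CCNA2 and MYBL2 do.

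**Figure D5:**
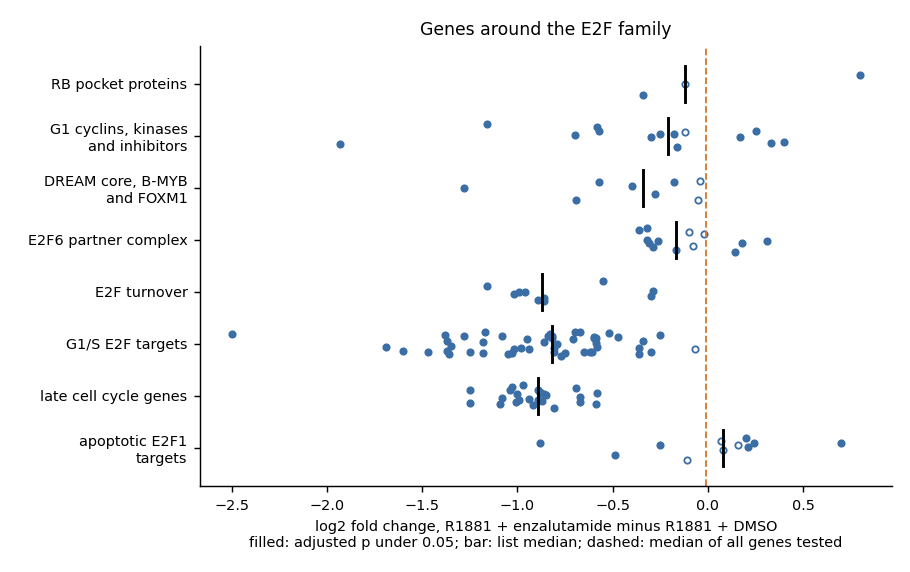
Log2 fold change of each tested gene (points, filled where the adjusted p was under 0.05) in 8 lists around the E2F family, with the median of each list as a black bar and that of all genes tested (-0.01) as a dashed line. The vertical position within a list has no meaning. The turnover, G1/S and late cell cycle lists lie almost wholly on the left, and the pocket proteins, G1 regulators, E2F6 complex and apoptotic targets spread over both sides.

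The genes whose levels followed E2F1 most closely over the 15 libraries were SDK1 (Pearson r = 0.994), BICD2 and KIFC1 (0.993 each), with log2 fold changes of -3.55, -1.18 and -1.09. Those closest to E2F8 were SPOCK1 and EAF2 (0.995 each) and LRRFIP2 (0.994), at -3.75, -4.22 and -1.84. These correlations describe points that share the treatment, and many genes reached a similar value, since 1105 of 15706 genes exceeded 0.95 with E2F1 and 1370 with E2F8.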

How the data were processed

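Single-end 50-base reads of polyadenylated RNA (stranded kit) were mapped by the authors with STAR to GRCh38 and counted with featureCounts of Subread after bcl2fastq 2.17, per the submitters' processing notes. Other tool versions, the annotation, the strand setting, the gene filter and the scaling were not given in the sources used here. Deposited values are a normalized signal per gene, called CPM in the methods, and they sum to 1053406 to 1078567 with DMSO and 985580 to 1008992 with enzalutamide. All values (100%, tolerance 0.01 reads) were whole reads. Any pair of same-treatment libraries differed beyond counting noise (lowest chi-square over its degrees of freedom 1.62), and all were kept as separate.

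Values were kept as deposited and tested with limma 3.58.1 (mean-variance trend on log2(CPM + 0.5), no covariate beside treatment) for the 17046 genes whose mean CPM reached 0.5, with Benjamini-Hochberg adjustment, in R 4.3.3. Exact permutation tests, 2-sided, used the 3003 regroupings of the libraries for single members and for the 6 pairs within a class, whose p-values were adjusted over the pairs. edgeR 4.0.16 and DESeq2 1.42.0 on the recovered reads, pseudocounts of 0.1 and 1, other filters and scalings, replicate blocks, each DMSO series alone and each library left out were the alternatives. Scripts were tested on simulated data. Positions and canonical transcript lengths are from GENCODE v44 and promoters from the RefSeq table. Promoters on chromosome 8 were not searched. The E2F words were chosen after the promoters had been read.

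The members, lists and tests were chosen with earlier results of these data known. Named are all 10 members, all genes of the pocket protein, G1, DREAM and E2F6 complex lists, the 3 lowest and 3 highest of the other lists (mean CPM of at least 1), KLK3 and the 3 genes most correlated with E2F1 and with E2F8. Some genes under this rule are not reported here. VWF, COL1A1, SYP, E2F3-IT1, RBIS, CSRP3-AS1, RPL19P6 and RNU6-425P are named beside these because a count or an overlap turns on them. The number of libraries limits the precision, as does counting error for E2F2, E2F7 and E2F8.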

Additional observations from a re-analysis of the deposited data

Results flagged for a closer look

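E2F6 in R1881 + DMSO replicate 5 (library 74) was at 9.75 CPM, the lowest of its group and far from the nearest of the other DMSO libraries, at 11.6 CPM. The gap was 0.495 of the range of the group, above Dixon's 95% critical value for 10 libraries. Of 20 groups of libraries examined for the 10 genes, 1 such value is expected by chance. Without this library the log2 fold change of E2F6 was -0.27 (adjusted p = 0.000282 in limma), beside -0.24 with it.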

How the results depend on the processing

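The calls of E2F1, E2F2, E2F5, E2F7, E2F8 and TFDP2 held under every alternative run. With library totals of 1000000, which moved the median log2 fold change of all genes from -0.01 to 0.08, E2F3 and TFDP1 turned to 0.05 each and E2F4 (-0.12) and E2F6 (-0.15) were not called. With edgeR E2F3 was 0.00 and E2F4 -0.17, not called. Against DMSO libraries 71 to 75 alone E2F3 was 0.01, E2F6 -0.17 (not called) and E2F7 relative to E2F8 0.12, and against 51 to 55 alone E2F4 was -0.15 and E2F1 relative to E2F2 -0.23, neither called. With a pseudocount of 0.1 E2F1 relative to E2F2 was -0.25, not called. The cause of these changes was not tested. The replicate numbers of the labels did not pair the libraries (correlations of -0.07 to 0.07 in 5 pairs). With a block on these numbers 10043 genes were called in place of 10660 and E2F6 was -0.20 (adjusted p = 0.0553 in limma). The last digits of the library numbers gave correlations of -0.42 to 0.67 in 10 pairs, 2 of them over 0.1. With a block on the last digit 10720 genes were called and E2F6 was -0.24 (adjusted p = 0.00615 in limma).

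With each library left out in turn, 10093 to 10864 genes were called in all and 6 to 7 members were called lower. The ranges were -0.27 to -0.17 for E2F4, -0.38 to -0.29 for E2F1 relative to E2F2, -0.04 to 0.13 for E2F4 relative to E2F5 and -0.04 to 0.05 for E2F7 relative to E2F8. Of these values, among them the counts of genes and members, 306 were taken as unchanged, 2 lost the call and 7 turned sign. A fold change was unchanged when it kept direction and call. A count was taken as unchanged when it moved by a small factor, as with 6 members called lower in place of 7. Of the values under the other settings, 227 were unchanged by the same rule, 8 lost the call and 5 turned sign. The 5 members called lower with library totals of 1000000 were taken as unchanged there. At 55 to 83 reads, E2F2 with enzalutamide had the widest counting error of the 10 genes.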
